A study of Mus musculus with 2 samples.

Results

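A set of 10 genes of glucose use was examined in nuclear RNA of mouse macrophages: Hif1a, the oxygen-regulated subunit of the transcription factor HIF-1, and Slc2a1, Hk1, Hk2, Pfkp, Pfkfb3, Aldoa, Pgk1, Pkm and Ldha, which act between glucose uptake and lactate. They were chosen by symbol, and all 10 were found among the 55536 mouse genes of the tables. The cells were bone-marrow-derived macrophages, primary phagocytes grown from marrow, of the C57BL/6J mouse strain. Every sample had received Lipid A, the part of bacterial lipopolysaccharide that TLR4 recognises, at 100 ng/ml for 12 h. After the wash the cells were kept for 12 h in its absence and then met Lipid A at 100 ng/ml once more, for 120 min. Total RNA of the nuclear fraction, named nucleoplasmic in another label, was sequenced after depletion of ribosomal RNA. There was 1 group with 2 biological replicates, made from 1 µg of RNA in replicate 1 and 500 ng in replicate 2, so a difference in RNA amount cannot be told apart from one between the replicates. Both replicates carry the same donor label, sex and age were not collected, and nothing states that they came from separate animals, so their spread may be partly technical. Untreated cells were not analysed here, and the values describe what these nuclei held, not what Lipid A changed.

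Glycolysis splits glucose into pyruvate in the cytosol and yields ATP without oxygen, and LDHA then reduces pyruvate to lactate. Macrophages activated through TLR4 are known for a high rate of this pathway, and HIF-1, a dimer of HIF-1alpha and ARNT, binds the core sequence ACGTG or GCGTG near of many of its genes. Oxygen-dependent hydroxylation marks HIF-1alpha protein for destruction by the VHL ubiquitin ligase, so Hif1a RNA and HIF-1alpha protein need not move together. The measurements here are of RNA only.

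Replicate 1 held 28450309 expected counts on genes and replicate 2 held 16940220. Levels are given as TPM, a share of all transcripts corrected for length, for each library and as mean ± SD (n = 2). Structural RNAs, any other genes with a mean effective length under 200 bases, and transcripts of the mitochondrial genome were taken as 1 set. This set took 78.9% of the TPM in replicate 1 and 69.5% in replicate 2, which lowers every other TPM in replicate 1 relative to replicate 2. Mitochondrial transcripts alone took 4.15% of the counts in replicate 1 and 10.3% in replicate 2. The 8 macrophage markers examined, such as Adgre1 and Csf1r, were all detected, with a median of 163 TPM in replicate 1 and 179 TPM in replicate 2. In the gene tables, of the 3 markers of each of 6 other cell types none reached 1 TPM in both libraries. There the summed level of a list was at most 1.77 TPM, and Elane, Hbb-bs, Ly6g, Cd3e, Cd3g and Cd79a were at 0 TPM in both libraries. By a second quantification of the same reads, called the second tool, Pecam1 had 1.45 TPM in replicate 1 and 14.4 TPM in replicate 2. Cd3d had 1.00 and 5.57 TPM by that tool, and Alas2 1.45 and 3.41 TPM. No other marker of those 6 cell types reached 1 TPM in both libraries by that tool. In such bulk RNA, fewer cells expressing a gene and less RNA per cell cannot be told apart.

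Alternative exons decide which enzyme variant several of these genes encode, and 2 exon pairs on which results below turn are shown first. Pkm carries a pair of adjacent exons of 167 bases of which a mature mRNA keeps one. The upstream exon gives pyruvate kinase M1, the constitutively active form of muscle and brain, and the downstream exon gives M2, the form of proliferating and activated cells that is regulated by fructose 1,6-bisphosphate. The sequences are those of the GENCODE M21 transcripts, 5′ to 3′, with capitals where the pair differs. The exons lie on the plus strand at chr9:59675029-59675195 (M1, in Pkm-202) and chr9:59675568-59675734 (M2, in Pkm-201) of mm10, and 103 of the 167 positions (61.7%) are identical.
Pkm M1 exon: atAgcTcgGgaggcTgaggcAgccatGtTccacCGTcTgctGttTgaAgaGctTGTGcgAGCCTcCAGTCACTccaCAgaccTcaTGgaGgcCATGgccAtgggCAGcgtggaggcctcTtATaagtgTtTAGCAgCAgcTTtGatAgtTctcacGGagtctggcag
Pkm M2 exon: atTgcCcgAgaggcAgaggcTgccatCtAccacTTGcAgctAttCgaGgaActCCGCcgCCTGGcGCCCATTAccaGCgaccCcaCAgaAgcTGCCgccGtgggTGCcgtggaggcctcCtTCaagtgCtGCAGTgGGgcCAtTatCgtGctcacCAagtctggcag
Pfkp, the platelet-type phosphofructokinase, has a similar coding pair of 153 bases on the minus strand, upstream at chr13:6597859-6598011 (in Pfkp-207) and downstream at chr13:6593101-6593253 (in Pfkp-201). They are identical at 90 of 153 positions (58.8%), and capitals again mark the differences.
Pfkp upstream exon: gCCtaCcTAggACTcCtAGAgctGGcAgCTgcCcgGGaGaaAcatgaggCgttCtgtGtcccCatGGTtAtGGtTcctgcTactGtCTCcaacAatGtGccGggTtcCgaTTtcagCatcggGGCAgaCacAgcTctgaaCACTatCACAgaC
Pfkp downstream exon: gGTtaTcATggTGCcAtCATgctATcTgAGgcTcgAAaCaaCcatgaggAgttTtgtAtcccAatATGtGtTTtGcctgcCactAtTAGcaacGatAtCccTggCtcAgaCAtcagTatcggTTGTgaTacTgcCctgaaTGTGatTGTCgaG

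All 10 genes were detected, meaning a TPM of at least 1 in each library, and 9 of them had at least 10. Of all 22028 protein-coding genes 39.6% were detected in this way, and of those whose mean count was at least 10, 76.8% were. The median level of the 10 genes was 22.8 TPM in replicate 1 and 25.96 TPM in replicate 2 (24.4 ± 2.25), against 4.10 and 6.09 TPM (5.09 ± 1.41) for protein-coding genes whose mean count was at least 10. Between 375 and 6849 expected counts lay behind each value. Together the 10 genes took 0.105% of the counts in replicate 1 and 0.0961% in replicate 2, with 95% Wilson intervals of 0.103 to 0.106 and 0.0947 to 0.0976. These intervals cover counting error only.

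Pkm, Aldoa and Ldha held the highest levels of the 10 genes in each library. Pkm, which makes pyruvate and ATP from phosphoenolpyruvate, had 67.5 TPM in replicate 1 and 88.7 TPM in replicate 2 (78.1 ± 15.0). Its locus on chromosome 9 (chr9:59656368-59679375, plus strand) also contains Gm49759, an unverified annotation on the same strand with 1242 counts in replicate 1 and 940.2 in replicate 2. These are 18.1% and 24.2% of the counts of Pkm, and how reads were divided between the overlapping genes is uncertain. Aldoa (chr7:126795234-126800751, minus strand), the aldolase that splits fructose 1,6-bisphosphate, had 45.8 TPM in replicate 1 and 46.4 TPM in replicate 2 (46.1 ± 0.431). Ldha (chr7:46841475-46855627, plus strand) had 37.9 TPM and 42.5 TPM in replicates 1 and 2 (40.2 ± 3.30). They held ranks 1, 2 and 3 in each library, and the ranges of neighbours in this order did not overlap. Pgk1 (chrX:106187100-106203699, plus strand), whose product makes the first ATP of the pathway, was lower, with 18.1 TPM in replicate 1 and 22.6 TPM in replicate 2 (20.3 ± 3.23). All 31-base words of the processed pseudogene Gm5537 occur in Pgk1 transcripts. It was given 167 counts in replicate 1 and 90.5 in replicate 2, 12.0% and 12.4% of those of Pgk1, so the level of Pgk1 is uncertain by about that share. The second tool gave the pseudogene 185 counts in replicate 1 and 0 in replicate 2.

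Pfkp and Pfkfb3 act at the committed step. Pfkp, of the phosphofructokinase complex that phosphorylates fructose 6-phosphate, had 26.5 TPM in replicate 1 and 32.0 TPM in replicate 2 (29.2 ± 3.91) from chr13:6579768-6648777, minus strand. The protein-coding gene Pitrm1 overlaps it on the opposite strand, with counts equal to 15.0% of those of Pfkp in replicate 1 and 18.8% in replicate 2. The strand setting of the counting is not given in the sources used here, so reads of the overlap cannot be assigned with certainty. Pfkfb3 (chr2:11471433-11554077, minus strand) makes fructose 2,6-bisphosphate, the strongest activator of phosphofructokinase, and had 20.3 TPM in replicate 1 and 26.8 TPM in replicate 2 (23.6 ± 4.59).

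Slc2a1, Hk1 and Hk2 serve uptake and the first phosphorylation. Slc2a1, which encodes the glucose transporter GLUT1 (chr4:119108711-119137983, plus strand), had 5.60 TPM in replicate 1 and 6.17 TPM in replicate 2 (5.89 ± 0.403) and was the lowest of the 10 in each library. Hk1 (chr10:62268855-62379908, minus strand) had 25.2 TPM in replicate 1 and 24.4 TPM in replicate 2 (24.8 ± 0.566), and Hk2 (chr6:82725025-82774454, minus strand) had 16.2 TPM and 20.5 TPM (18.3 ± 3.01). Both encode hexokinases that bind mitochondria and trap glucose as glucose 6-phosphate. The antisense gene Gm17034 overlaps Hk2, with counts equal to 3.57% of those of Hk2 in replicate 1 and 7.98% in replicate 2.

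Hif1a (chr12:73901375-73947530, plus strand) had 14.4 TPM in replicate 1 and 25.1 TPM in replicate 2 (19.8 ± 7.54), in TPM the largest relative spread of the 10. This place depended on the scale. In TPM rescaled without mitochondrial and short RNAs, Hif1a had 69.2 in replicate 1 and 82.3 in replicate 2 (75.7 ± 9.31). On that scale Hk1 was relatively wider, with 121 and 80.2 (101 ± 28.9). The deposited credibility intervals, 13.3 to 15.4 TPM in replicate 1 and 22.4 to 26.2 TPM in replicate 2, did not overlap. It ranked ninth in replicate 1 and sixth in replicate 2. In the order of mean levels, Hk1, Pfkfb3, Pgk1, Hif1a and Hk2 followed Pfkp. Neighbours among these 5 overlapped in their ranges over the libraries, so neighbours are not ordered beyond their spread. The range of Hk1 lay wholly above those of Pgk1 and Hk2. Slc2a1 lay below all of these 5 without overlap.

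**Figure D1:**
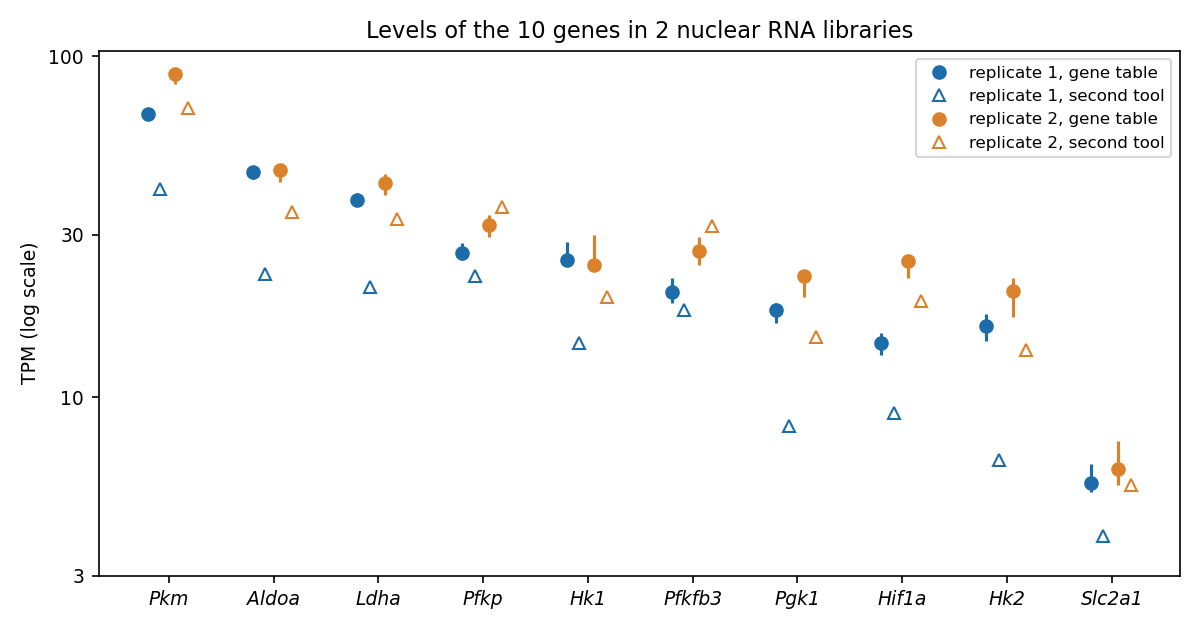
TPM (log scale) of the 10 genes, ordered by mean. Filled circles show the gene tables of replicate 1 (blue) and replicate 2 (orange) with the deposited credibility interval as a vertical line, and open triangles show the second tool. Pkm was highest at 67.5 and 88.7 TPM and Slc2a1 lowest at 5.60 and 6.17 TPM. The second tool placed 8 genes lower in the mean and 2 higher.

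The deposited second transcript table, from another quantification of the same reads, gave means between 0.554 and 1.06 times those of the gene tables. Pfkp (29.4 TPM) and Pfkfb3 (24.9 TPM) were the 2 genes with a higher mean there. Pgk1, at 8.25 TPM in replicate 1 and 15.0 TPM in replicate 2, and Hk2, at 6.56 TPM and 13.8 TPM, were among those with much lower ones. Pkm stayed first and Slc2a1 last, but Pfkp took rank 2, above Aldoa (28.9 TPM) and Ldha (27.2 TPM).

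Set beside their isozymes, a member was the main form in 7 of the 9 gene families compared, and among the transporters and hexokinases another gene was far higher. Hk1 made up 11.7% of the TPM of Hk1, Hk2, Hk3 and Hkdc1 in replicate 1 and 15.5% in replicate 2, and Hk2 made up 7.51% and 12.9%. Hk3, a hexokinase of myeloid cells, made up 80.8% and 71.6%, with 174 TPM in replicate 1 and 113 TPM in replicate 2 (144 ± 43.2). Slc2a1 took 4.58% of the TPM of Slc2a1, Slc2a3 and Slc2a6 in replicate 1 and 7.62% in replicate 2. Slc2a6, which encodes the transporter GLUT6 of intracellular membranes, took 95.1% and 91.5%, with 116 TPM in replicate 1 and 74.1 TPM in replicate 2 (95.3 ± 29.9). The ranges of Slc2a1, Hk1 and Hk2 over the libraries lay below those of Slc2a6 and Hk3 without overlap, and the second tool gave Hk3 84.6% and 77.6%, and Slc2a6 93.0% and 89.2%, of their families.

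Pfkp held 86.8% of phosphofructokinase TPM in replicate 1 and 86.5% in replicate 2, with Pfkl, the liver form, at 3.46 ± 0.863 TPM and Pfkm, the muscle form, at 1.06 ± 0.163 TPM. Pfkfb3 held 72.6% and 74.0% of the TPM of the 4 PFKFB genes in replicates 1 and 2, and Pfkfb4 followed with 16.9% and 14.6%. For aldolase, lactate dehydrogenase and the HIF alpha subunits a single gene took nearly everything. Aldoa had 99.9% and 98.8% of aldolase TPM, Ldha 99.7% and 98.0% of lactate dehydrogenase TPM, and Hif1a 99.7% and 99.6% of the TPM of Hif1a, Epas1 and Hif3a. The second tool gave Hif1a 95.4% in replicate 1 and 89.4% in replicate 2. The liver pyruvate kinase gene Pklr and the testis gene Pgk2 had 0 counts in both libraries, which allows up to 3 counts, 0.105 CPM in replicate 1 and 0.177 CPM in replicate 2. By the second tool Pklr had 0.292 TPM and 1.31 TPM, or 0.712% and 1.82% of pyruvate kinase TPM in replicates 1 and 2.

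**Figure D2:**
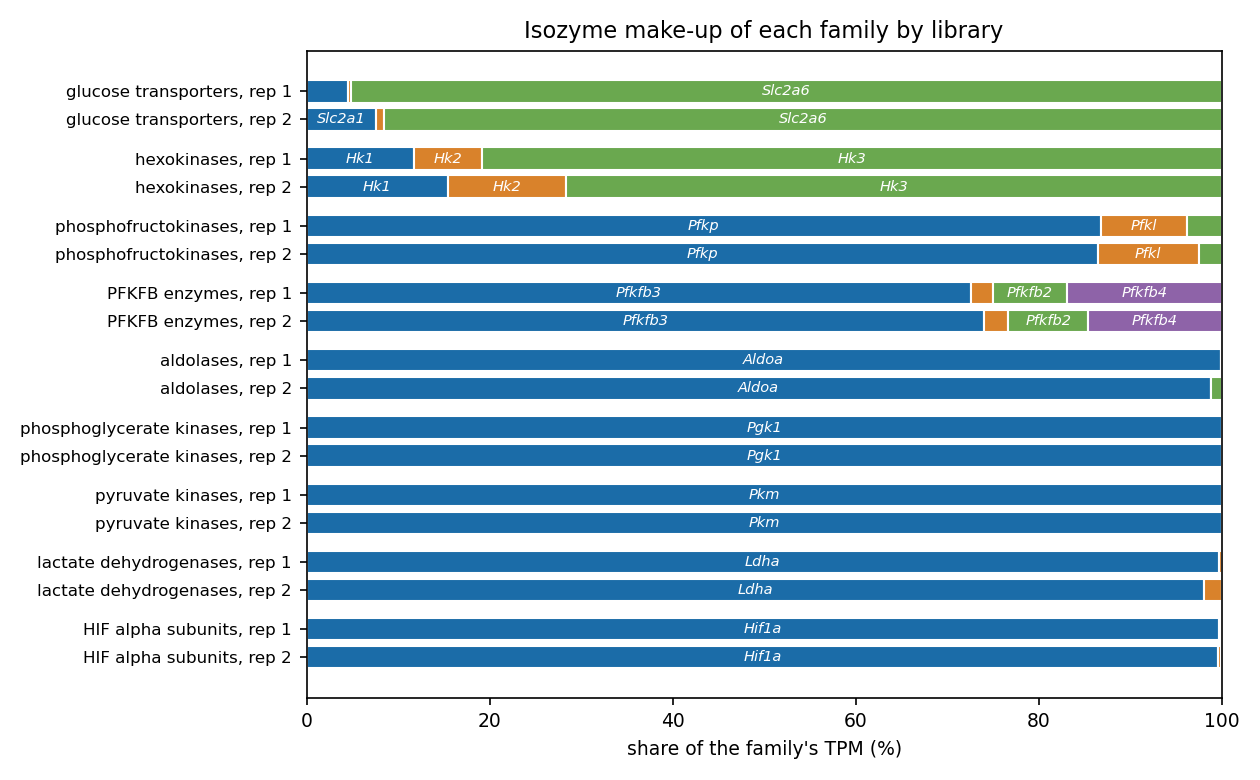
Share of each family's TPM (%) taken by its genes, one bar per library, replicate 1 above replicate 2. Segments over 6% are named. Slc2a6 and Hk3 fill most of their bars (95.1% and 91.5%, 80.8% and 71.6%), and in the other 7 families a member gene fills most.

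Of the 30 other genes of glycolysis and lactate transport, 13 were detected, with a list median of 1.00 ± 0.247 TPM. After Hk3 and Slc2a6 the highest were Gapdh, the dehydrogenase of glyceraldehyde 3-phosphate, at 66.4 TPM in replicate 1 and 80.3 TPM in replicate 2, and the enolase Eno2 at 25.3 TPM and 38.8 TPM. Among partners and regulators of HIF-1, 6 of 10 were detected, led by the inhibitor Cited2 (21.4 TPM in replicate 1 and 24.8 TPM in replicate 2), the partner Arnt (11.5 and 22.4 TPM), the prolyl hydroxylase Egln2 (13.2 and 14.4 TPM) and the asparaginyl hydroxylase Hif1an (4.37 and 6.16 TPM). Arnt, like Hif1a, had a wide spread, with an SD of 7.69 TPM around a mean of 16.9 TPM. Epas1, which encodes HIF-2alpha, had 0.0300 TPM in replicate 1 and 0.0700 TPM in replicate 2 in the gene tables, and 0.353 TPM and 1.59 TPM by the second tool. Egln3 stood at 0.0400 TPM in both libraries.

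Of 15 other genes known as HIF-1 targets, 9 were detected. The highest were the collagen prolyl hydroxylase gene P4ha1 (25.8 TPM in replicate 1 and 21.8 TPM in replicate 2), the oxidoreductase gene Ero1l (12.5 and 23.2 TPM), the growth factor gene Vegfa (20.1 and 11.1 TPM) and the demethylase gene Kdm3a (11.8 and 16.6 TPM). Adm, Ankrd37, Car9, Ddit4, Mxi1 and Pdk1 did not reach 1 TPM in both. All 8 genes of the pentose phosphate pathway, which branches off at glucose 6-phosphate, were detected with a median of 12.6 ± 3.42 TPM. Pgd led them with 34.2 TPM in replicate 1 and 64.3 TPM in replicate 2. Of 12 genes for the entry of pyruvate into mitochondria 9 were detected, with a median of 4.54 ± 0.813 TPM, led by the carrier gene Mpc1 at 16.0 TPM and 26.7 TPM. Ldha, whose product uses the same pyruvate, lay above Mpc1 in both libraries.

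Pkm RNA carried mostly the M2 exon shown above. Of the TPM on Pkm-202 and Pkm-201, the transcript with the M1 exon took 14.4% in replicate 1 and 7.95% in replicate 2 (11.2% ± 4.54). By expected counts it held 749 of 6187 in replicate 1, or 12.1% (11.3 to 12.9, Wilson), and 233 of 3517 in replicate 2, or 6.63% (5.85 to 7.50, Wilson). The share of Pkm-202 was thus higher in replicate 1 beyond counting error, which leaves out uncertainty in dividing reads between transcripts. M2 was the major form in both. The deposited credibility intervals of Pkm-202, 6.94 to 9.57 TPM in replicate 1 and 4.23 to 7.30 TPM in replicate 2, overlapped. Pkm-202 and Pkm-201 also differ at their ends (2041 and 2432 bases), and a share of transcripts is not a count of reads on the exon pair. The second tool gave Pkm-202 13.6% in replicate 1 and 10.5% in replicate 2.

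For the Pfkp pair, transcripts with the upstream exon took 56.5% of the TPM in replicate 1 and 54.5% in replicate 2 (55.5% ± 1.36). The counts were 674 of 999 (67.5%, 64.5 to 70.3) in replicate 1 and 287 of 436 (65.7%, 61.3 to 70.1) in replicate 2, and these intervals overlap. The second tool gave transcripts with the upstream exon 67.5% in replicate 1 and 68.6% in replicate 2. These shares include Pfkp-203, of 702 bases and typed as a target of nonsense-mediated decay. It had 2.38 and 3.68 TPM by that tool and 0 TPM in the gene tables. Between the full-length Pfkp-207 and Pfkp-201 alone, which also differ in length (4145 and 2679 bases), the second tool gave Pfkp-207 41.7% and 37.9%. The deposited credibility intervals of Pfkp-207 and Pfkp-201 overlapped in both libraries. In replicate 2 they were 2.44 to 4.33 TPM and 1.28 to 3.82 TPM, so which exon was the major form was not settled.

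Hif1a RNA started at either of 2 first exons. The downstream one (chr12:73907904-73908324) belongs to Hif1a-201, with 2508 coding bases, and to Hif1a-203. The upstream one (chr12:73901375-73901498) belongs to Hif1a-202, with 2430 coding bases. Hif1a-202 took 23.6% of the TPM on these 3 transcripts in replicate 1 and 34.2% in replicate 2 (28.9% ± 7.47). In counts this was 559 of 2367 (23.6%, 21.9 to 25.4) in replicate 1 and 608 of 1717 (35.4%, 33.2 to 37.7) in replicate 2. The share of Hif1a-202 was thus lower in replicate 1 beyond counting error, which leaves out uncertainty in dividing reads between transcripts. The second tool placed the shares lower, at 12.3% in replicate 1 and 26.6% in replicate 2, in the same order. Hif1a-202 and Hif1a-201 also differ outside the first exon, and a share of transcripts is not a count of reads on the first exons.

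A Pfkfb3 transcript with its first exon at chr2:11553827-11554077 took 28.4% in replicate 1 and 31.4% in replicate 2 of the TPM it shared with 3 coding transcripts that start at chr2:11501625-11502101. Its share by the second tool was 14.2% in replicate 1 and 23.1% in replicate 2. Hk1 was spread over several starts. Of the TPM on its protein-coding transcripts, the one with its first exon at chr10:62358336-62358362 took 45.4% in replicate 1 and 37.5% in replicate 2, the one from chr10:62340013-62340542 took 25.5% and 34.8%, and a short one from chr10:62327403-62327767 took 24.6% and 27.7%. In expected counts these starts took 54.0% and 44.5%, 36.1% and 48.9%, and 5.68% and 6.53% in replicates 1 and 2. The short transcript has 896 bases, and TPM divides by length. By the second tool these starts took 32.6% and 39.9%, 15.0% and 16.0%, and 26.2% and 29.0% in replicates 1 and 2, so the order of the libraries at the start leading by TPM turned round. Pgk1, Slc2a1, Pfkp, Pkm and Ldha by contrast had over 90% of their coding TPM on a single first exon in both libraries; by the second tool this held for Pgk1 and Slc2a1, whose coding transcripts share 1 first exon, and not for the other 3.

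**Figure D3:**
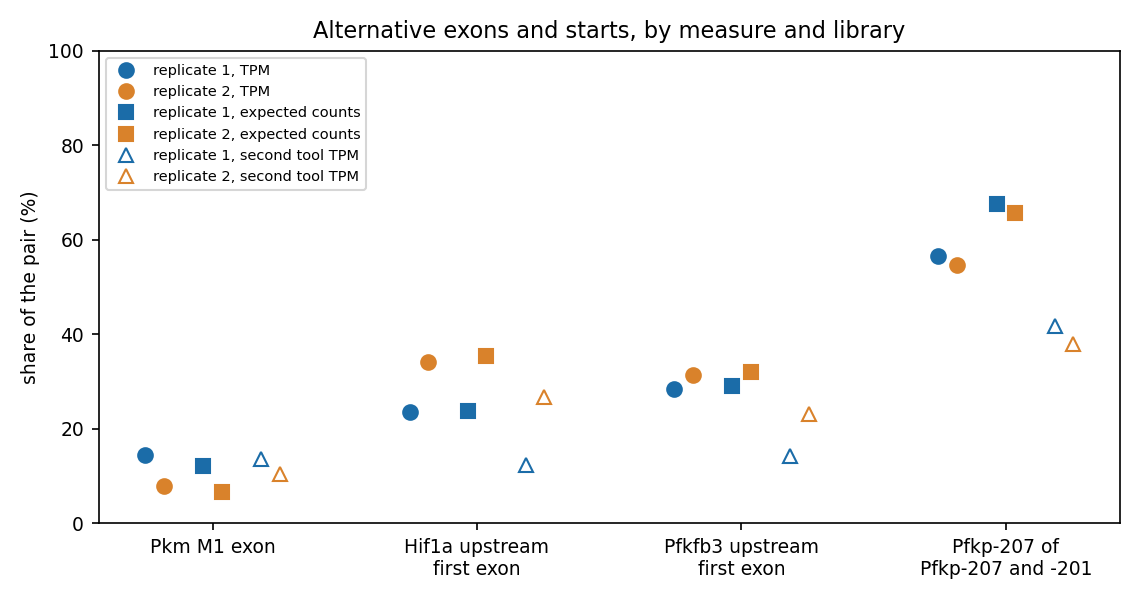
Share (%) of the first-named form in its pair or set, by TPM (circles), expected counts (squares) and second-tool TPM (triangles), for replicate 1 (blue) and replicate 2 (orange). The Pkm M1 share lies between 6.63% and 14.4%, and the share of Pfkp-207 against Pfkp-201 lies above 50% by TPM and counts and below it by the second tool.

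Pfkp stood apart from the other 9 in the class of its transcripts. Transcripts annotated as retained intron, which keep intron sequence and encode no protein, took 76.3% of its TPM in replicate 1 and 80.1% in replicate 2 (78.2% ± 2.66), and protein-coding ones 23.7% and 19.9%. Pfkp-212, of 8681 bases, was its leading transcript with 24.5% of the TPM in replicate 1 and 41.6% in replicate 2, and it took 2704 and 2362 expected counts. By the second tool Pfkp-212 had 11.8% and 20.5%, and all retained-intron transcripts of Pfkp 59.5% and 60.6%, in replicates 1 and 2. Among 6941 genes that have such a transcript and a mean count of at least 10, Pfkp had a higher retained-intron share than 97.0% in replicate 1 and 95.7% in replicate 2. In nuclear RNA, reads from introns of unfinished precursors count toward such transcripts too, and the tables cannot tell them apart.

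Of the 8 members with an annotated retained-intron transcript, Pfkp was the one with a share over 50% in both libraries, 1 of 8, where the background is 12.9% of such genes. The median share of the 8 was 11.8% in replicate 1 and 14.2% in replicate 2 (13.0% ± 1.70), against 23.6% and 29.96% (26.8% ± 4.50) for the 6941 genes. It was lower in replicate 1 for 6 of 8 members and for 66.8% of the 6941 genes. Pgk1 had 2.88% in replicate 1 and 6.32% in replicate 2, Ldha 4.36% and 11.3%, and Pkm 10.1% and 9.53%. By the second tool Pgk1 had 6.74% and 8.19%, Ldha 13.7% and 25.7%, and Pkm 6.51% and 6.86%, so the order of the low members depended on the tool. Pfkfb3 had 23.3% in replicate 1 and 23.6% in replicate 2 by TPM, while such transcripts held 4.98% ± 0.367 of its counts; TPM divides by length, and these transcripts are short. The same contrast was seen for Hk2, in which a non-coding transcript of 594 bases had 32.7% and 42.5% of the TPM in replicates 1 and 2 and 3.41% and 5.48% of its counts. By the second tool this transcript had 0% in replicate 1 and 27.0% in replicate 2. In Slc2a1, the remainder was a transcript typed as a target of nonsense-mediated decay, with 15.0% of the TPM in replicate 1 and 14.3% in replicate 2.

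Counting protein-coding transcripts alone changed the place of Pfkp more than that of any other member. Its coding TPM was 6.27 in replicate 1 and 6.38 in replicate 2, the ninth of the 10. Pkm (60.7 and 80.3 coding TPM), Aldoa (37.6 and 39.0) and Ldha (36.2 and 37.7) again led, and Hk1 followed with 23.6 and 20.8. By the second tool Pfkp ranked seventh by coding TPM, with 6.81 in replicate 1 and 10.6 in replicate 2.

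**Figure D4:**
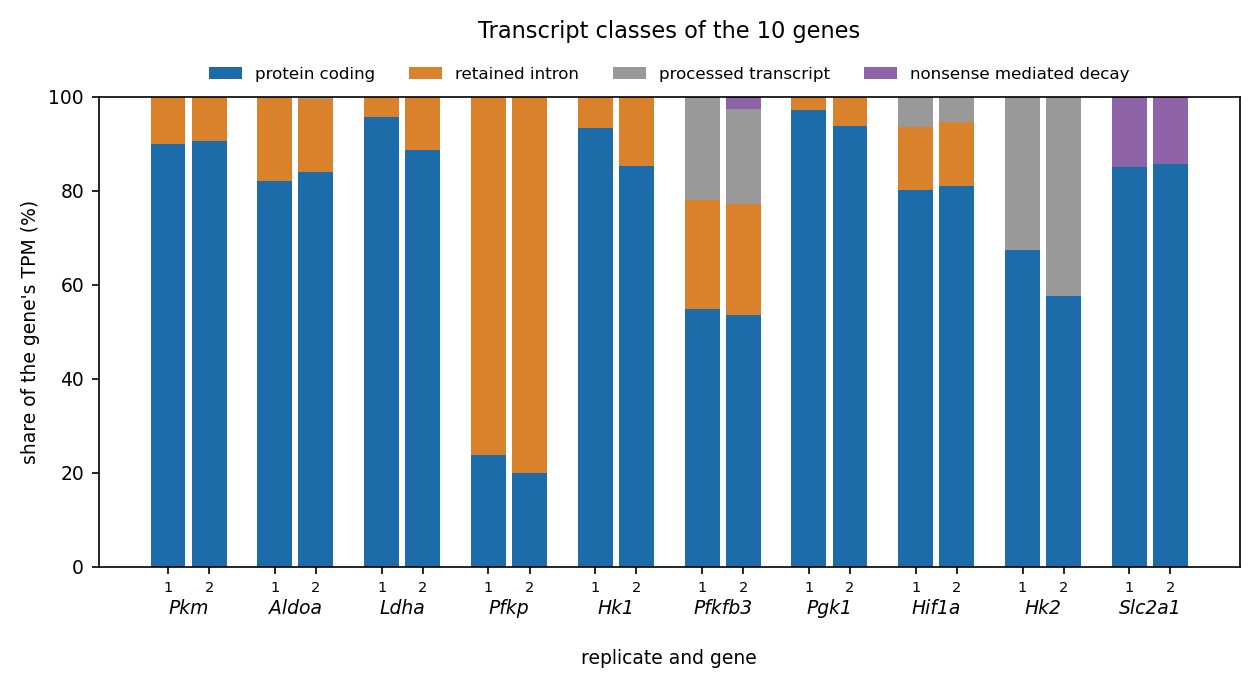
Share of each gene's TPM (%) by annotated transcript class, with the bars of replicates 1 and 2 side by side and genes ordered by mean level. Retained-intron transcripts fill 76.3% and 80.1% of the Pfkp bars, and a non-coding transcript fills 32.7% and 42.5% of those of Hk2.

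The promoters of the 10 genes were searched for the HIF core because Hif1a is among them. All 10 are in the RefSeq promoter table (GRCm38.p6), and the 250 bases before each annotated start were read on both strands. The letters ACGTG occurred in at least 1 promoter of 8 members, all but Hk1 and Pfkp, and in 18.5% of the 27025 genes of the table. For Hk1 the annotated promoters are at chr10:62340372-62340671 and chr10:62379859-62380158. Its start leading by coding TPM, chr10:62358336-62358362, is not among them and was not searched. In Pkm the match lay in the promoter at the first exon chr9:59657238-59657297. That exon took 0% of coding TPM in both libraries, and 19.1% and 20.7% by the second tool. The promoter annotated at the first exon with 96.6% in replicate 1 and 96.4% in replicate 2 had no match. That promoter, chr9:59656326-59656625, lies largely within the exon (chr9:59656368-59656649), so little sequence upstream of the exon was read. Genes with several promoters have more chances of at least 1 match, which was not adjusted for. Of all 32851 promoters, 16.6% had a match. GCGTG occurred in 5 of the 10 and in 30.9% of genes, and CACGTG, the palindromic E-box, which contains ACGTG, in 3 of the 10 and in 6.86% of genes. Ldha had 3 matches to ACGTG, at -145, -48 and -34 from its start, and Pgk1 had 2, at -150 and -131. These stretches, with the most closely spaced matches, are shown with capitals at ACGTG or its reverse complement CACGT, on the plus strand. They cover chr7:46845639-46845795 (-165 to -9 of Ldha) and chrX:106186930-106186994 (-170 to -106 of Pgk1).
Ldha promoter: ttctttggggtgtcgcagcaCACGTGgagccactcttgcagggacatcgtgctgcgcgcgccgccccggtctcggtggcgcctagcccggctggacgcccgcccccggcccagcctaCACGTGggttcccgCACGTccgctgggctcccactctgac
Pgk1 promoter: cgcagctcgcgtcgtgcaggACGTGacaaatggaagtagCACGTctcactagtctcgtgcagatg
Hif1a itself had 2 matches, at -135 and -70 of the downstream start, which is the one in the table. Hk2 also had 2, at -226 and -52. A match is a description of the letters, and no binding was measured.

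The libraries were compared for each gene by a two-sided exact binomial test of counts scaled by TMM, a factor that centres most genes, with Benjamini-Hochberg adjustment over 14691 genes. The test compares these libraries, not conditions, and covers counting error only. Of the 10 genes, 8 were higher in replicate 1, where the background is 30.2% of tested genes, and 1, Hif1a, was higher in replicate 2, where it is 29.7%. Pfkp passed in neither direction, with a log2 ratio of replicate 1 over replicate 2 of -0.07 (adjusted p = 0.0698, exact binomial test). The median log2 ratio of the 10 genes was 0.42, against -0.01 for all tested genes. Hk1 had the highest ratio, 0.70 (3509 counts in replicate 1 and 1440 in replicate 2, adjusted p = 3.1e-56, exact binomial test), and Aldoa followed with 0.60 (2662 and 1171 counts, adjusted p = 6.3e-33). Hif1a had -0.12 (2422 and 1759 counts, adjusted p = 0.0132, exact binomial test). Between replicates edgeR put the typical log2 difference of a gene at 0.68, so 9 of the 10 ratios are within it and that of Hk1 is just past it.

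The 8 macrophage markers were also all higher in replicate 1, with a median log2 ratio of 0.72, and so were Hk3 (1.32) and Slc2a6 (1.27). Of 21 other glycolysis and lactate transport genes tested, 10 were higher in replicate 1 and 3 in replicate 2, with a median log2 ratio of 0.25. Of 7 HIF-1 partners and regulators tested 4 were higher in replicate 1 and 1 in replicate 2 (median 0.20), and of 8 pentose phosphate genes 4 and 3 (median 0.16). Of 12 other HIF-1 targets tested 3 were higher in replicate 1 and 5 in replicate 2 (median -0.28), and for pyruvate entry the counts were 1 and 2 of 10 (median -0.04). The backgrounds for all these counts are the same 30.2% and 29.7%, and nothing particular to these lists is read from them. In TPM the order turned round, with 9 of the 10 genes higher in replicate 2 and Hk1 the exception. On the TPM scale all tested genes together had a median log2 ratio of -0.43, so the scale itself is shifted. Relative to that median, 9 of the 10 genes had positive ratios, between 0.04 for Pkm and 0.48 for Hk1, and Hif1a had -0.33.

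The ratio of all tested genes moved with GC content. In 5 groups of equal size by the GC content of the leading transcript, the median log2 ratio was -0.49, -0.17, -0.01, 0.20 and 0.41 from the lowest to the highest. Hif1a, with 41.3% GC, lay in the lowest group, and Hk1, Aldoa and Pkm, with 55.4%, 57.3% and 57.7%, in the highest. Relative to the median of its own group Hif1a had a ratio of 0.37, Hk1 0.29, Aldoa 0.19 and Pkm -0.18. The part of GC content in the difference between the libraries was not tested.

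**Figure D5:**
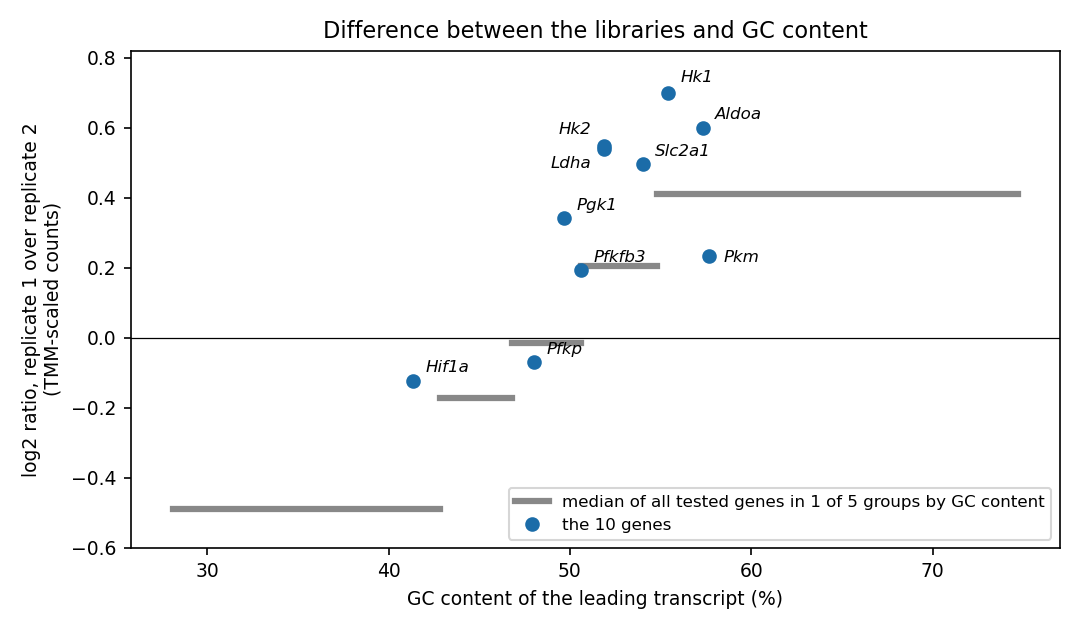
Log2 ratio of replicate 1 over replicate 2 (TMM-scaled counts) against the GC content (%) of each gene's leading transcript. Points are the 10 genes and grey lines the median of all tested genes in each of 5 groups by GC content. Hif1a lies at 41.3% GC with a ratio of -0.12, above the median of -0.49 of its group.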

How the data were processed

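Nuclear RNA of 2 libraries of 1 group was analysed. The authors deposited expected counts and TPM per gene and per transcript, in columns named as RSEM names them, with posterior mean TPM and the percent of a gene's TPM on each transcript. The upper bounds of the credibility interval of TPM, per the file headers, are a signal on the TPM scale; the level of that interval is not stated. The authors' second transcript table, called the second tool, holds estimated counts and TPM with columns named as kallisto names them. The build is mm10 with GENCODE M21, per the descriptions deposited with the files; tools, versions and strand setting are not given in the sources used here. 

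Replicate 1 held 28450309 expected counts on mouse genes and replicate 2 held 16940220; rows naming no mouse gene (1.79% and 0.318% of all counts) were left out. The 3-count floor is 0.105 and 0.177 CPM. Aldoa has 2 identifiers, and that with the higher mean count was used. Detection means TPM 1 or more in both libraries. Counts were rounded to whole numbers, scaled by TMM (edgeR 4.0.16, R 4.3.3) and tested per gene with an exact binomial test (scipy 1.17.1) where the mean count was at least 10, at an adjusted p of 0.05. The test was first checked on simulated counts with Poisson error alone. That check held no further spread between libraries, so it does not cover the spread between these replicates. The common biological coefficient of variation, 0.335, gave the typical log2 difference. GC content is that of the transcript with the highest summed TPM. Wilson intervals (95%) and floors cover counting error only, and leave out uncertainty in dividing reads between transcripts. Isoform shares are of TPM or counts of annotated transcripts. Genes sharing sequence were those of whose 31-base words at least 50% occur in a member's transcripts. Alternatives were library size, DESeq2 1.42.0 size factors, no filter, the second tool, posterior mean TPM, TPM rescaled without mitochondrial and short RNAs, detection at 0.5 and 5 TPM, and each library alone; the comparisons within 5 groups of GC content, relative to the TPM median and of isozyme families were chosen after the data were seen. The 10 genes, 5 pathway lists and 7 marker lists were chosen with earlier results of these data known. All 10 genes are named, with the up to 4 highest detected genes of each list and isozymes of the 10.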

Additional observations from a re-analysis of the deposited data

How the results depend on the processing

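The 10 genes were detected in both libraries under every alternative run (detection at 0.5 and 5 TPM, the second tool and each library alone), and M2 stayed the major form of Pkm under each measure. The median TPM of the 10 genes was 20.97 by the second tool and 97.2 in TPM rescaled without mitochondrial and short RNAs, and between 22.8 and 25.96 in a single library. The Hif1a-202 share was 19.5% by the second tool and 23.6% to 34.2% in single libraries, and the Pkm M1 share 7.95% to 14.4%. The median retained-intron share of the 8 members was 18.2% by the second tool, 5.90% by counts and 11.8% to 14.2% in single libraries.

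Of the log2 ratios of replicate 1 over replicate 2, those of 7 genes turned negative on the TPM + 1 scale, whose all-gene median is -0.43: Slc2a1 at -0.12, Hk2 at -0.32, Pfkfb3 at -0.38, Aldoa at -0.0187, Pgk1 at -0.31, Pkm at -0.39 and Ldha at -0.16. By counts of the second tool Pfkp had 0.31 and Hif1a 0.17, and all 10 genes were higher in replicate 1. Relative to genes of like GC content Pfkfb3 had -0.0112 and Pkm -0.18, and Hif1a 0.37. Without TMM, Pfkp passed (-0.23, adjusted p = 4.9e-11, exact binomial test) and Pfkfb3 did not (0.03, adjusted p = 0.605). The causes were not tested beyond these settings. No paired analysis was possible because there is 1 group.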
